A study of Arabidopsis thaliana with 11 samples.

Results

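The genes described here handle copper and superoxide in Arabidopsis thaliana, and they are 10 of the 33602 loci in the deposited table, taken by locus identifier. They are the copper/zinc superoxide dismutases CSD1 (AT1G08830), CSD2 (AT2G28190) and CSD3 (AT5G18100), their copper chaperone CCS (AT1G12520), the iron superoxide dismutases FSD1 (AT4G25100), FSD2 (AT5G51100) and FSD3 (AT5G23310), the copper regulator SPL7 (AT5G18830), the copper importer COPT2 (AT3G46900) and the metal transporter YSL2 (AT5G24380). They were selected on the mean read levels of all 6 groups, so their levels and differences are given as descriptions and carry no test. All 10 identifiers matched genes of those names in the RefSeq TAIR10.1 annotation, and all 10 passed the filter on low reads.

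The study asked which transcripts follow the induction of SPEECHLESS (SPCH), the transcription factor that starts the stomatal cell lineage. Whole seedlings grown in light for 4 days gave the poly-A RNA of 11 sequenced libraries. The wild type (WT) was Columbia without a transgene. The second line, iSPCH, carried ESTpro:SPCH1-4A-YFP, a SPCH variant named 1-4A fused to the fluorescent protein YFP and driven by an estradiol-inducible promoter. Seedlings of each line were either untreated (0 h) or incubated in 10 µM beta-estradiol for 6 h or 8 h. The groups were WT 0 h with 1 library and WT 6 h, WT 8 h, iSPCH 0 h, iSPCH 6 h and iSPCH 8 h with 2 libraries each. WT seedlings of 6 h and 8 h therefore received the same estradiol as iSPCH, while incubation, time of day, handling and estradiol cannot be told apart between hours. Seedlings incubated without estradiol are not analysed here. The labels do not say how many independent transformants iSPCH represents, nor whether the libraries of a group came from separate cultures, so a p-value reflects the scatter among these libraries alone. In RNA of whole seedlings, fewer cells of a type and less RNA per cell cannot be told apart.

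Superoxide dismutases turn superoxide into oxygen and hydrogen peroxide, and plants hold forms that use copper and zinc, iron or manganese. In Arabidopsis the copper/zinc enzymes receive copper from CCS. When copper is short, SPL7 binds GTAC motifs and raises copper importers, FSD1 and the microRNA miR398, and miR398 lowers the messages of CSD1, CSD2 and CCS, so that an iron enzyme can take the place of copper enzymes in the chloroplast. That is background from the field, and copper was not measured in these samples.

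miR398 is shown here because CSD1, CSD2 and CCS are its known targets. RefSeq TAIR10.1 annotates mature forms that share a seed, bases 2 to 8, written in capitals.
ath-miR398a-3p: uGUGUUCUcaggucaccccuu
ath-miR398b-3p: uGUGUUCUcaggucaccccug
ath-miR398c-3p: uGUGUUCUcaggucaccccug
The best ungapped match to miR398b-3p was sought in every annotated coding transcript of each gene, with 1 point for a mismatch and 0.5 for a G:U pair, and with bases in Watson-Crick pairs written in capitals. The sites below are from the genes whose levels are described first.
CSD1: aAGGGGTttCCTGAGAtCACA
CCS: attGGGaGACCTGgGAACACt
CSD2: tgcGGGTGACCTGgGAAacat
The CSD1 site scored 4 points and lies in the 5′ UTR, joined across 2 exons (chr1:2827177-2827685, + strand). Only 9 of 26712 genes searched had a site at or below that score. The CCS site scored 5.5 in coding sequence (chr1:4267521-4267541, - strand), a score that 1.46% of genes reached. The CSD2 site scored 6.5 in coding sequence (chr2:12015572-12015592, + strand), a score that 11.9% of genes reached, so without gaps the CSD2 match did not stand apart from the genome. The search left out bulged pairing.

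CSD2, the chloroplast copper/zinc enzyme (chromosome 2, 12014412 to 12016569, + strand), had the widest range among the 6 SOD genes of the group. Its normalised read count, a read count divided by the library's size factor, was 9277 in WT 0 h, 2502 and 1853 in WT 6 h, 5837 and 6184 in WT 8 h, 4060 and 4444 in iSPCH 0 h, 3103 and 2385 in iSPCH 6 h, and 2268 and 2630 in iSPCH 8 h. WT 0 h and both WT 8 h libraries stood above every other library, and the WT 6 h libraries overlapped those of induced iSPCH. On the log2(normalised count + 1) scale used for all differences below, WT 6 h stood lower than WT 0 h by a difference of -2.11 (SE 0.19), and WT 8 h stood higher than WT 6 h by 1.48 (SE 0.15). iSPCH 6 h against 0 h gave -0.64 (SE 0.15), and iSPCH 8 h against 6 h gave -0.16 (SE 0.15).

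CSD1, the cytosolic copper/zinc enzyme (chromosome 1, 2827060 to 2829315, + strand), had a similar order over a narrower range. It read 5369 in WT 0 h, 2835 and 2466 in WT 6 h, 4309 and 4424 in WT 8 h, 2671 and 3505 in iSPCH 0 h, 3200 and 2938 in iSPCH 6 h, and 3570 and 3416 in iSPCH 8 h. WT 0 h was again highest and both WT 8 h libraries came next, while the iSPCH 0 h libraries spanned those of iSPCH 6 h. The step from WT 6 h to WT 8 h was 0.72 (SE 0.11), against 0.19 (SE 0.11) in iSPCH. CSD1 shares 211 bases of its span with AT1G08840 on the opposite strand. That locus had authors' means of 304.9 to 541.5, and the sources used here do not say whether counting used strand.

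CCS (chromosome 1, 4267074 to 4268982, - strand), which hands copper to the copper/zinc enzymes, differed from CSD1 and CSD2 in peaking at WT 8 h. It read 1835 in WT 0 h, 1412 and 1169 in WT 6 h, 2524 and 2648 in WT 8 h, 884.4 and 1029 in iSPCH 0 h, 1539 and 1358 in iSPCH 6 h, and 1511 and 1504 in iSPCH 8 h. Both WT 8 h libraries stood above all others, both iSPCH 0 h libraries stood below all others, and WT 6 h overlapped induced iSPCH. The 6 h against 0 h difference was -0.51 (SE 0.12) in WT and 0.60 (SE 0.10) in iSPCH, opposite in sign. From 6 h to 8 h it was 1.01 (SE 0.10) in WT and 0.06 (SE 0.10) in iSPCH.

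CSD3, the peroxisomal enzyme (chromosome 5, 5987187 to 5988885, + strand), did not share this order. Its lowest library was WT 0 h at 348.9 and its highest a WT 8 h library at 549.0. The 0 h libraries of both lines, 348.9 to 409.3, lay below all 8 incubated libraries, 449.5 to 549.0. CSD3 shares 142 bases with AT5G18110 on the opposite strand, whose authors' means also stood lower at 0 h (740.1 and 755.6) than later (2126 to 2314), and the part of this overlap in the CSD3 count was not tested.

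FSD1, the abundant iron enzyme (chromosome 4, 12884300 to 12887011, - strand), had its highest and lowest groups where CCS had its lowest and highest. It read 5805 in WT 0 h, 7337 and 6996 in WT 6 h, 3768 and 3713 in WT 8 h, 9994 and 9842 in iSPCH 0 h, 7949 and 8258 in iSPCH 6 h, and 5906 and 6060 in iSPCH 8 h. Both WT 8 h libraries were lowest and both iSPCH 0 h libraries highest, and within no group did the pair differ by more than 4.76% of its mean. WT 6 h against 0 h was 0.30 (SE 0.09) and WT 8 h against 6 h was -0.94 (SE 0.08), while iSPCH gave -0.29 (SE 0.08) and -0.44 (SE 0.08) for the same steps.

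**Figure D1:**
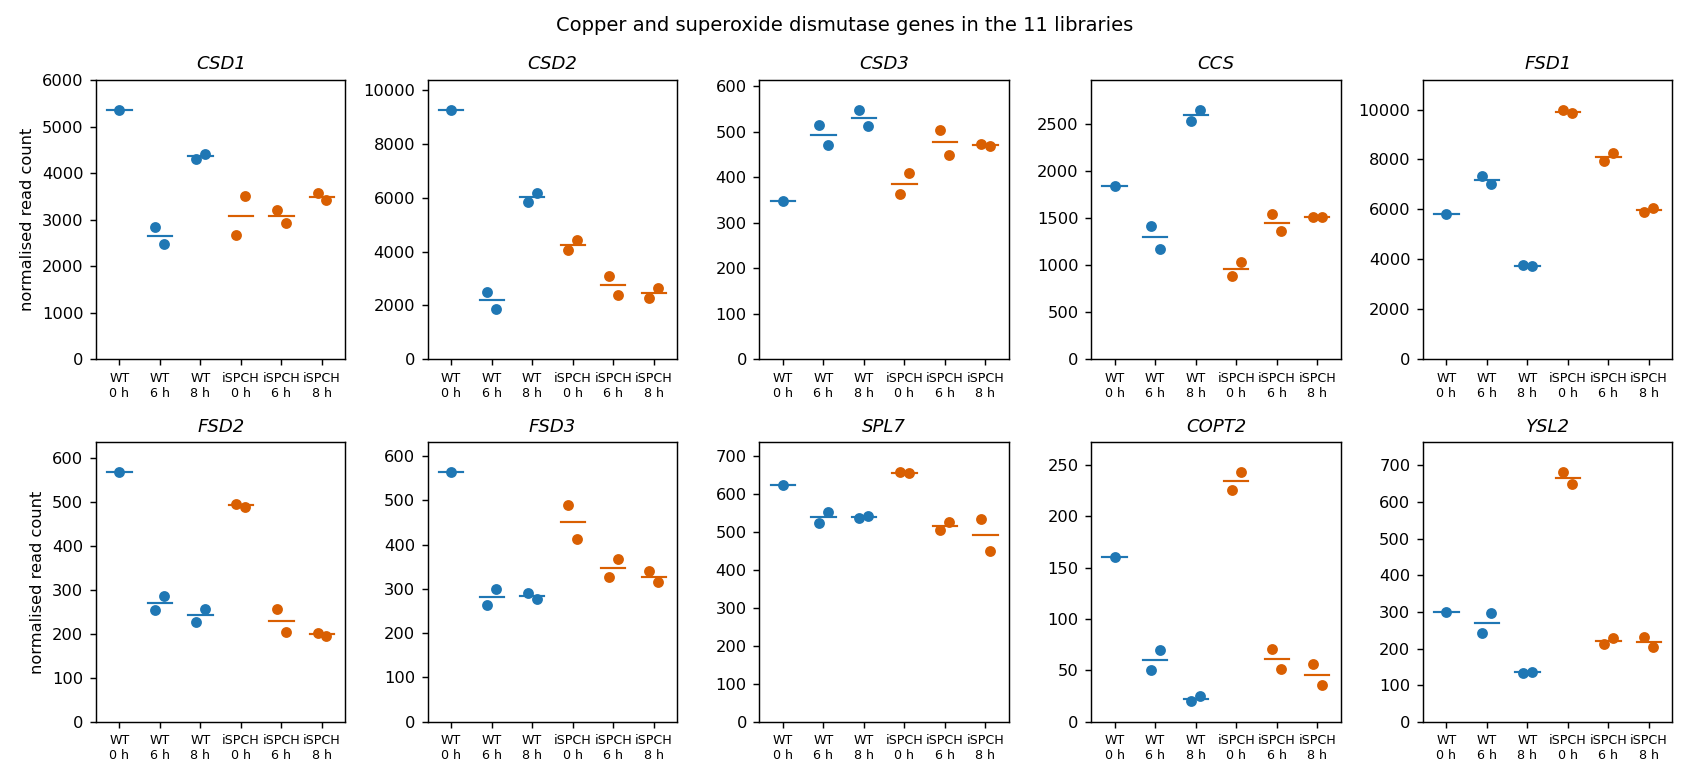
Normalised read counts (vertical axes, linear and starting at 0) of the 10 genes in the 11 libraries, by line and hour; points are libraries and the short bars group means. CSD1 and CSD2 are high in WT 0 h and WT 8 h, FSD1 is lowest in WT 8 h, and COPT2 and YSL2 are highest in iSPCH 0 h.

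FSD2 and FSD3, which act together at the chloroplast nucleoid, both stood lower after incubation in both lines and so did not follow FSD1. FSD2 read 566.9 in WT 0 h and 496.1 and 488.0 in iSPCH 0 h, against 195.0 to 285.8 in the 8 incubated libraries. FSD3 read 563.0 in WT 0 h and 490.4 and 412.2 in iSPCH 0 h, against 264.4 to 366.9 later. No incubated library of either gene reached a 0 h library. Differences from 0 h were -1.07 to -1.31 for FSD2 over both lines and hours. They were -0.999 (SE 0.139) and -0.989 (SE 0.139) in WT and -0.38 (SE 0.11) and -0.46 (SE 0.11) in iSPCH for FSD3. Partial copies of FSD2 exist, and the one in the table, AT4G00651 (96.8% identical over 185 bases), had authors' means of 4.858 to 16.17.

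The order of the enzymes themselves was set on normalised reads per kb of exon, since longer messages collect more reads. In WT 0 h CSD2 led with a level of 8810 per kb, before CSD1 with 6150 and FSD1 with 3738. In iSPCH 0 h FSD1 led with 6386 per kb, before CSD2 with 4038 and CSD1 with 3537. CSD3, FSD2 and FSD3 stayed between 128.5 and 707.5 per kb in every group.

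As a share of all SOD reads per kb, summed over the 3 copper/zinc, 3 iron and 2 manganese genes, the copper/zinc class made up 67.6% in WT 0 h and 69.1% and 69.0% in WT 8 h. It made up 45.6% and 41.4% in WT 6 h, 43.7% and 48.1% in iSPCH 0 h, 47.4% and 44.2% in iSPCH 6 h, and 50.8% and 52.2% in iSPCH 8 h. The iron class held 19.9% in WT 0 h, 17.3% and 16.5% in WT 8 h, and 31.1% to 42.2% in the other 8 libraries. WT 0 h and WT 8 h thus held copper/zinc messages at a share that no library of another group reached. The shares of a library have a fixed sum, so a higher copper/zinc share by itself lowers the shares of the other classes. FSD1 itself read 5805 in WT 0 h and 5906 and 6060 in iSPCH 8 h. The manganese class, almost all of it the mitochondrial enzyme MSD1, held 12.5% to 19.5% throughout. Within the copper/zinc class CSD2 stood above CSD1 in WT 0 h, with 38.6% against 26.9% of SOD reads per kb, and also in WT 8 h and iSPCH 0 h. CSD1 stood above CSD2 in both lines at 6 h and in iSPCH 8 h. The shares were 23.5% and 22.4% against 17.2% and 14.0% in WT 6 h. They were 23.9% and 23.9% against 19.2% and 16.1% in iSPCH 6 h, and 30.2% and 29.0% against 15.9% and 18.5% in iSPCH 8 h.

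**Figure D2:**
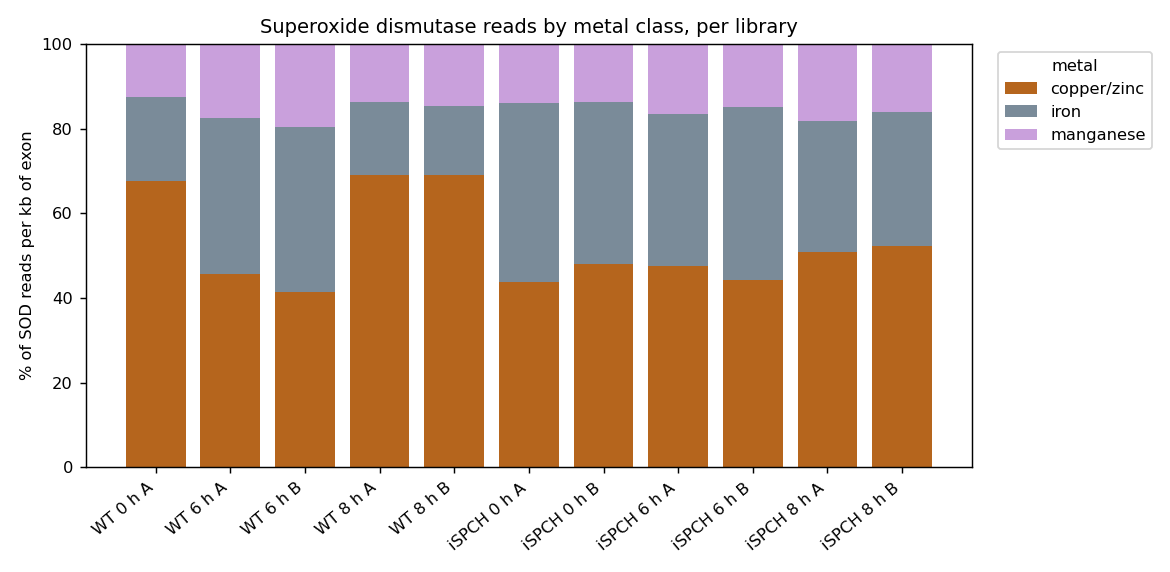
Share of superoxide dismutase reads per kb of exon (vertical axis, percent) held by copper/zinc, iron and manganese genes in each of the 11 libraries; A and B name the libraries of a group in arbitrary order. The copper/zinc share is 67.6% to 69.1% in WT 0 h and WT 8 h and 41.4% to 52.2% in the other libraries.

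The read ratio of CSD2 to FSD1, a pair picked after its values were seen, needs no scaling between libraries because both counts come from the same one. It was 1.6 in WT 0 h, 0.341 and 0.265 in WT 6 h, and 1.55 and 1.67 in WT 8 h. In iSPCH it was 0.406 and 0.452 at 0 h, 0.39 and 0.289 at 6 h, and 0.384 and 0.434 at 8 h. All 6 iSPCH libraries lay between 0.289 and 0.452 whatever the hour, whereas WT moved from above 1 to well below it and back. The ratio compares libraries, not the amounts of the enzymes, since the messages differ in length.

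**Figure D3:**
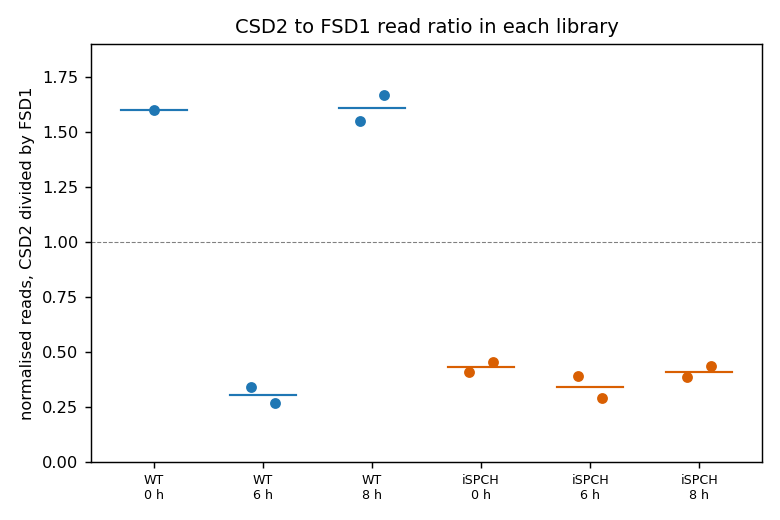
Normalised reads of CSD2 divided by those of FSD1 (vertical axis, linear) in each library, by line and hour; short bars are group means and the dashed line marks equal reads. WT 0 h and WT 8 h lie at 1.55 to 1.67 and every other library at 0.265 to 0.452.

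SPL7, the transcription factor of the copper response (chromosome 5, 6275895 to 6280681, + strand), varied least of the 10 genes. Its normalised counts ran from 449.9 in an iSPCH 8 h library to 656.4 in an iSPCH 0 h library, a span of 1.46-fold. It stood slightly lower after incubation, by differences of -0.21 (SE 0.11) in WT at both hours and of -0.35 (SE 0.09) and -0.42 (SE 0.09) in iSPCH.

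COPT2, a plasma membrane copper importer (chromosome 3, 17268700 to 17269510, + strand), had the widest span of all 10, 12.1-fold. It read 161.0 in WT 0 h, 50.2 and 69.4 in WT 6 h, 20.1 and 24.9 in WT 8 h, 226.1 and 243.0 in iSPCH 0 h, 70.9 and 51.8 in iSPCH 6 h, and 56.3 and 35.8 in iSPCH 8 h. Both iSPCH 0 h libraries were highest and both WT 8 h libraries lowest, and the WT 6 h libraries overlapped those of iSPCH at 6 h and 8 h. Differences from 0 h were -1.43 (SE 0.30) and -2.79 (SE 0.30) in WT and -1.93 (SE 0.25) and -2.36 (SE 0.25) in iSPCH. The lowest values rest on 23 and 22 reads in WT 8 h.

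YSL2, a transporter of metals bound to nicotianamine (chromosome 5, 8323895 to 8326705, + strand), had the same highest and lowest groups. It read 298.8 in WT 0 h, 241.7 and 295.8 in WT 6 h, 133.5 and 136.0 in WT 8 h, 681.2 and 649.4 in iSPCH 0 h, 213.5 and 229.7 in iSPCH 6 h, and 232.5 and 205.3 in iSPCH 8 h. Both iSPCH 0 h libraries stood above every other library, and both WT 8 h libraries stood below every other. In WT the lower level appeared between 6 h and 8 h (-0.98, SE 0.12), and in iSPCH between 0 h and 6 h (-1.58, SE 0.12). YSL2 shares 99 bases with AT5G24390 on the opposite strand, whose authors' means were 49.59 to 81.93.

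GTAC, the core that SPL7 is known to bind and its own reverse complement, was counted in the 250 bases before and 50 bases after each gene's annotated start. It occurred in 6 of the 10 genes, with 3 copies in YSL2, 2 in CSD1 and 1 each in CSD3, CCS, FSD1 and COPT2. Of 26711 promoters of protein-coding genes 39.0% had at least 1 copy and 1.97% at least 3. The 250 bases before the start are printed for FSD1, YSL2 and CSD1, an iron SOD, a transporter and the copper/zinc gene with the most copies there, with GTAC in capitals, from RefSeq TAIR10.1.
FSD1 (chr4:12887012-12887261, - strand): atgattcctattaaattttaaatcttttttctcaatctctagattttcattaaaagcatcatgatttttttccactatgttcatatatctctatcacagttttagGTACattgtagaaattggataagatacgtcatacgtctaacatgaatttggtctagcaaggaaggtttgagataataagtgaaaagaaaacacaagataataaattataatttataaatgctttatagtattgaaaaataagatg
YSL2 (chr5:8323645-8323894, + strand): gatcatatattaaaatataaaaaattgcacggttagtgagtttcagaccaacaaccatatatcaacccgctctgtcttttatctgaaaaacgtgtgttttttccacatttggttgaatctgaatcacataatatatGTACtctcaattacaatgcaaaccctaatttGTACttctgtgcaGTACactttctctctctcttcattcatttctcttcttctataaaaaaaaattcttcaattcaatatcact
CSD1 (chr1:2826810-2827059, + strand): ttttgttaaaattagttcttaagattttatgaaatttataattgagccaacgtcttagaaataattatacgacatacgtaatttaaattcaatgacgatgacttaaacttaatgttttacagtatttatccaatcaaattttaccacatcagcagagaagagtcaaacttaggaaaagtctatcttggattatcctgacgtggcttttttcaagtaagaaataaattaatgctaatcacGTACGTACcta
The YSL2 copies begin 114, 83 and 70 bases before the start, the FSD1 copy 145 before it, and the CSD1 copies, which abut each other, 11 and 7 before it. CSD3 and CCS also hold a copy before the start, 132 and 211 bases from it, and the COPT2 copy lies after the start. No copy was found in this window in CSD2, FSD2, FSD3 or SPL7. A match describes the letters only.

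Before estradiol, the iSPCH libraries already stood apart from the WT library for several of these genes. At 0 h iSPCH stood lower than WT for CSD2 (-1.13, SE 0.19), CCS (-0.94, SE 0.13) and CSD1 (-0.81, SE 0.14), and higher for YSL2 (1.15, SE 0.15), FSD1 (0.77, SE 0.09) and COPT2 (0.54, SE 0.30). The limma fit over all genes called 18 of 19658 genes between the lines at 0 h (0.0916%). Among them were 4 of the 10, FSD1 and YSL2 higher (0.0458% of all genes) and CSD1 and CCS lower (0.0458%), while CSD2 and COPT2 were not called. Because the same contrast entered the choice of the genes, nothing is read from that share. WT 0 h is a single library that the fit assumes to vary like the other groups. The number of genes called at 0 h was 138 when only the groups compared were fitted, and 41 or 40 without either iSPCH 6 h library.

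At 6 h SPCH read 37220 and 37520 in iSPCH, where WT had 103.3 and 129.8. None of the 10 genes was called between the lines at this hour, against 4.71% of all genes (1.16% higher and 3.55% lower). Their differences ran from -0.27 (SE 0.12) for YSL2 to 0.34 (SE 0.15) for CSD2. At 8 h the differences had the same sign as at 0 h for CSD2 (-1.30, SE 0.15), CCS (-0.78, SE 0.10), COPT2 (0.97, SE 0.25), YSL2 (0.69, SE 0.12) and FSD1 (0.68, SE 0.08), and these 5 were called, against 10.7% of all genes (4.75% higher and 5.93% lower). All of these contrasts entered the choice of the genes, and nothing is read from the counts at 6 h, at 8 h or for the change between hours. CSD1 stood at -0.32 (SE 0.11), with both iSPCH libraries below both WT libraries. The change from 0 h to 8 h in iSPCH minus that in WT was called for none of the 10, against 3.28% of all genes (1.79% higher and 1.5% lower), with values from -0.46 (SE 0.19) for YSL2 to 0.53 (SE 0.18) for FSD3. CSD2, CCS, FSD1, FSD2, CSD1, YSL2 and COPT2 differed between the lines in the same direction at 0 h and 8 h. That change was -0.17 (SE 0.24) for CSD2, 0.17 (SE 0.16) for CCS, -0.10 (SE 0.12) for FSD1 and -0.08 (SE 0.19) for FSD2. It was 0.49 (SE 0.18) for CSD1, -0.46 (SE 0.19) for YSL2 and 0.43 (SE 0.39) for COPT2.

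**Figure D4:**
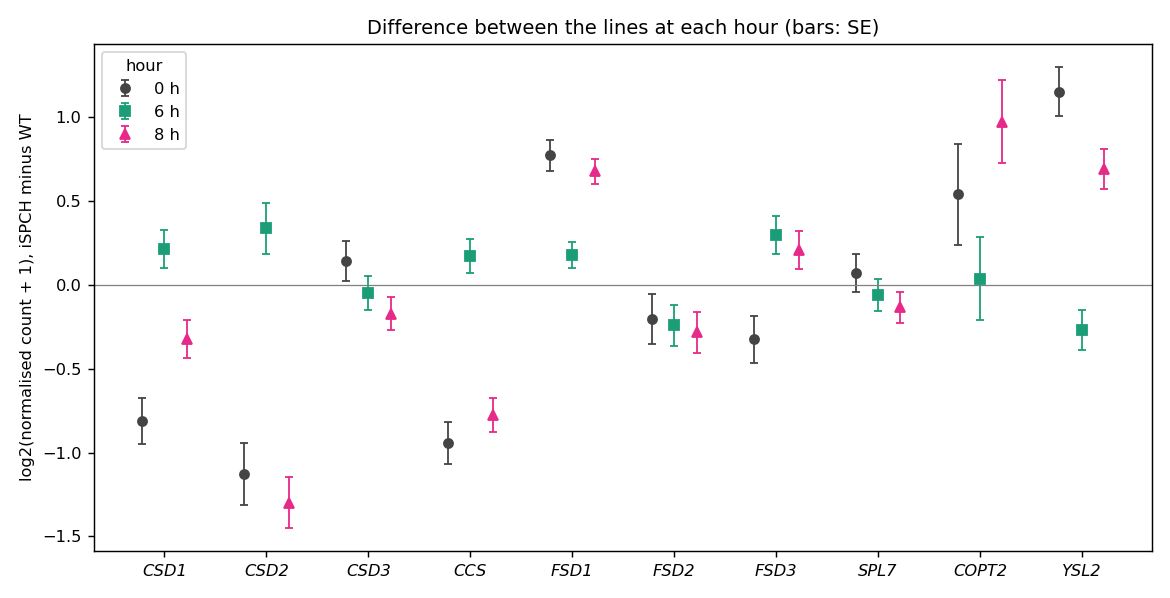
Difference between iSPCH and WT in log2(normalised count + 1) (vertical axis) for each of the 10 genes at 0 h, 6 h and 8 h; bars are standard errors of the fit. CSD2, CSD1, CCS and FSD1 sit on the same side at 0 h and 8 h and between 0.17 and 0.34 at 6 h, while SPL7 and CSD3 stay within 0.17 of 0.

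Over the hours the fit called 8 of the 10 genes in WT at 6 h against 0 h, against 57.2% of all genes, with 2 higher (29.3% of all genes) and 6 lower (27.9%). At 8 h it called 8 in WT, against 61.1%, with 2 higher (31.2%) and 6 lower (29.9%). In iSPCH it called 9 at 6 h, against 65.1%, with 2 higher (33.2%) and 7 lower (31.9%). At 8 h it called 9 in iSPCH, against 68.3%, with 2 higher (34.8%) and 7 lower (33.5%). The median difference of the 10 was -0.76 in WT at 6 h and -0.63 at 8 h, where the median of all genes was 0.00 at both, and it was -0.36 and -0.59 in iSPCH, where that of all genes was 0.01 and 0.02. The WT contrasts share the WT 0 h library, as the iSPCH contrasts share theirs, and nothing is read from these counts. CSD3 was among the higher genes in all 4 contrasts and CCS in 3 of them, the exception being WT at 6 h.

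Among related genes outside the 10, which were tested, the copper transport list gave 15 of 19 genes with enough reads. ZIP2, which carries copper and zinc when expressed in yeast, was lowest in WT 8 h, as FSD1 was, and highest in iSPCH 8 h. It read 616.9 in WT 0 h, 983.7 and 922.7 in WT 6 h, 482.7 and 500.9 in WT 8 h, 1189 and 979.9 in iSPCH 0 h, 934.4 and 871.0 in iSPCH 6 h, and 1496 and 1143 in iSPCH 8 h. It was higher in iSPCH at 8 h by 1.41 (SE 0.12, adjusted p = 6.04e-06, limma), in both iSPCH libraries against both WT libraries. At 0 h the difference was 0.81 (SE 0.15, adjusted p = 0.0725). Of 20 other settings 6 called ZIP2 at 0 h. YSL3, another nicotianamine-metal transporter, was also higher in iSPCH at 8 h (0.53, SE 0.09, adjusted p = 0.00138). No other gene of the list was called between the lines at 8 h, and none at 0 h or 6 h. The list thus had 2 of 15 tested genes called at 8 h, against 10.7% of all genes. Of all genes 0.0916% were called at 0 h and 4.71% at 6 h.

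FRO4, a root copper reductase, was highest in iSPCH 0 h and lowest in WT 8 h, as COPT2 was, but did not share the order of COPT2 between them. It read 27.7 in WT 0 h, 35.1 and 52.3 in WT 6 h, 8.73 and 2.27 in WT 8 h, 225.2 and 116.7 in iSPCH 0 h, 46.5 and 21.0 in iSPCH 6 h, and 21.2 and 6.92 in iSPCH 8 h. The WT 8 h values rest on 10 and 2 reads and the libraries of a pair often lay far apart, and the 0 h line difference of 2.51 (SE 0.83) was not called (adjusted p = 0.526, limma). Over the hours FRO4 fell in iSPCH at 8 h (-3.62, SE 0.68, adjusted p = 0.00115). CCH, a copper chaperone, rose in WT at 6 h (0.37, SE 0.10, adjusted p = 0.00672) and fell in WT at 8 h (-0.30, SE 0.10, adjusted p = 0.0212).

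Other copper carriers rose or fell in both lines over the hours. The thylakoid copper pump PAA2 rose by 1.11 (SE 0.12) in WT and 0.97 (SE 0.10) in iSPCH at 6 h, and the chloroplast envelope pump PAA1 fell by 0.90 (SE 0.13) and 0.91 (SE 0.10), with adjusted p of 2.23e-05 or less in limma. RAN1, the pump that loads ethylene receptors with copper, the copper transporters COPT1 and COPT5 and the mitochondrial metal reductase FRO3 rose in all 4 hour contrasts. The importer COPT6, the chloroplast pump HMA1 and the metal-nicotianamine transporter YSL1 fell in all 4. Of the 15 genes, 8 rose and 4 fell in WT at 6 h and 6 rose and 6 fell at 8 h, and 7 rose and 6 fell in iSPCH at either hour. Of all genes 29.3% rose and 27.9% fell in WT at 6 h, 31.2% and 29.9% at 8 h, 33.2% and 31.9% in iSPCH at 6 h and 34.8% and 33.5% at 8 h. Medians were 0.40 and -0.10 in WT and 0.10 and 0.28 in iSPCH, where the medians of all genes were 0.00, 0.00, 0.01 and 0.02.

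Of the 7 copper microRNA precursors only MIR398C and MIR408 had enough reads to test. MIR398C read 304.3 to 549.9 with no called line difference, and it rose in WT at 8 h (0.55, SE 0.21, adjusted p = 0.0385, limma) while iSPCH gave 0.15 (SE 0.17, adjusted p = 0.451). MIR408 rose in WT at 6 h (0.55, SE 0.21, adjusted p = 0.0386, limma) and in iSPCH at 6 h (0.58, SE 0.17, adjusted p = 0.00793) and 8 h (0.79, SE 0.17, adjusted p = 0.000859), and was not called between the lines. All 218 bases of MIR408 also lie in the transcript of AT2G47020 on the opposite strand. The strand setting of the counting is not given, so the part of that gene in the MIR408 count is uncertain. MIR398B read 17.2 and 14.6 in iSPCH 0 h and 0.87 to 5.67 in the other libraries, from 18 and 15 reads against 1 to 5. The MIR398B and MIR398C precursors are 96.6% identical over 116 bases, so the split of reads between them is uncertain. MIR398B also overlaps an exon of AT5G14550 on the opposite strand, and MIR398C matches that gene's transcript at 96.6% over 116 bases. The part of AT5G14550 in their counts was not tested. Poly-A libraries count precursors, not the mature microRNA.

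Among copper proteins, the laccases LAC3 and LAC4 and the plastocyanin PETE1 were lower in iSPCH than WT at 8 h, by differences of -0.93 (SE 0.11, adjusted p = 5.2e-05), -0.61 (SE 0.10, adjusted p = 0.00112) and -0.43 (SE 0.10, adjusted p = 0.0096) in limma. UCC2, a uclacyanin, was higher (0.55, SE 0.12, adjusted p = 0.00974). At 6 h LAC4 (-0.43, SE 0.10, adjusted p = 0.0259) and PETE1 (-0.55, SE 0.10, adjusted p = 0.00441) were already lower. Of 9 tested genes in this list none was called at 0 h, 2 at 6 h and 4 at 8 h, against 0.0916%, 4.71% and 10.7% of all genes. COX5B-1, whose 5′ UTR holds a miR398b-3p match of 5.5 points (chr3:5299204-5299224, + strand), fell in all 4 hour contrasts by 0.41 to 0.73 and was not called between the lines.
COX5B-1: aAGGtGTGACCTGAGAAtcac
PETE2, the main plastocyanin, was too abundant for its libraries to be separated, and its authors' means were 103000, 60930 and 50570 in WT and 88240, 49400 and 37280 in iSPCH at 0 h, 6 h and 8 h.

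MSD1 read 2277 to 3082, a span of 1.35-fold, and was called only in WT at 8 h against 0 h (-0.29, SE 0.12, adjusted p = 0.0437, limma). CPN20, a chloroplast co-chaperonin that helps activate iron SOD, fell by 0.97 to 1.53 in all 4 hour contrasts. Neither was called between the lines.

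Iron genes were counted beside the iron SODs. Of 25 tested, 6 rose and 11 fell in WT at 6 h, 8 and 11 at 8 h, 8 and 11 in iSPCH at 6 h and 7 and 13 at 8 h, which is 24% to 32% rising and 44% to 52% falling against the shares of all genes given for the transport list. The list's medians were -0.33 and -0.55 in WT and -0.38 and -0.54 in iSPCH at 6 h and 8 h. URI, a bHLH regulator of iron uptake, rose by 2.25 (SE 0.11) in WT at 8 h, and the ferritins FER3 and FER4 fell by 2.19 (SE 0.12) and 1.31 (SE 0.12). Between the lines at 6 h 7 of 25 were called, against 4.71% of all genes. The ferritins FER1 (0.62, SE 0.09, adjusted p = 0.00156, limma) and FER4 and the vacuolar metal exporter NRAMP3 were higher in iSPCH. The iron peptide IMA3 (-1.67, SE 0.30, adjusted p = 0.00585, limma), the bHLH regulator BHLH101, the phloem transporter OPT3 and the ubiquitin ligase BTS were lower. IMA3 shares 332 bases with AT2G30770 on the opposite strand, and FER4 shares 118 bases with AT2G40290 on the same strand. The part of these neighbours in the IMA3 and FER4 counts was not tested. The WT 6 h libraries disagreed for iron genes, with BHLH38 at 91.9 and 260.6, BHLH100 at 28.4 and 166.0, and IMA2 at 184.8 and 422.6. Without the library that held the higher of these values, all 4 lower calls were lost (limma adjusted p of 0.0739 to 0.456) and so were those of FER4 (0.0773) and NRAMP3 (0.0951), while FER1 kept its call (0.0342). Without the other WT 6 h library, the calls of FER4 (0.154), NRAMP3 (0.113) and BTS (0.0532) were lost. Between the lines at 8 h only FIT was called (0.34, SE 0.10, adjusted p = 0.0496, limma), and 14 of 21 other settings did not call it. IRT1, the root iron importer, fell from 3793 in WT 0 h to 912.1 and 838.6 in WT 8 h and read 381.2 and 211.1 in iSPCH 8 h, with no call between the lines at that hour (adjusted p = 0.0633).

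The genes listed for removal of hydrogen peroxide, which SODs make, include enzymes that recycle ascorbate and glutathione. Of this list 22 were tested, and 3 rose and 13 fell in WT at 8 h, against 31.2% and 29.9% of all genes. In WT at 6 h 2 rose and 14 fell, against 29.3% and 27.9% of all genes. In iSPCH 4 rose and 13 fell at 6 h, against 33.2% and 31.9%, and 5 rose and 13 fell at 8 h, against 34.8% and 33.5%. Between the lines 3 were called at 6 h and 6 at 8 h, against 4.71% and 10.7% of all genes. Catalases CAT1 and CAT3 rose in WT at 8 h by 2.38 (SE 0.12) and 2.19 (SE 0.10), and PRXQ and MDAR6 fell by 1.72 (SE 0.11) and 1.87 (SE 0.13). The catalase CAT2 was too abundant for its libraries to be separated and was not tested. Its authors' means were lower with each hour, at 37340, 31110 and 27260 in WT and 31980, 26600 and 15980 in iSPCH at 0 h, 6 h and 8 h. At 8 h DHAR1, a dehydroascorbate reductase, was higher in iSPCH (1.27, SE 0.08, adjusted p = 1.49e-07, limma), with 5581 and 5605 against 2243 and 2382. APX4 and PRXQ were lower in iSPCH at 8 h (-0.50, SE 0.09, and -0.44, SE 0.09) and DHAR2 higher (0.36, SE 0.09, adjusted p = 0.0177). Of 4 tested metallothioneins, which bind copper, MT3 and MT2A rose in WT at 8 h by 1.03 (SE 0.12) and 1.34 (SE 0.19), MT1C fell by 0.78 (SE 0.21), and none was called between the lines.

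Genes with profiles most like CSD2, FSD1 and COPT2 were sought by Euclidean distance over the 6 group means on a log2 scale, each profile centred on its own mean, among 19337 genes. Nearest to CSD2 were AT3G29798, AT3G46270 and AT1G49230 at distances of 0.89 to 0.96. Nearest to FSD1 were AT1G04425, PLT1 and AT2G19530 at 0.41 to 0.54, and nearest to COPT2 were MLP168, AT2G41480 and KIN1 at 0.37 to 0.74. None of the 10 genes was among these neighbours. Group means of the neighbours ran from 13.8 to 230.3 for CSD2 and from 14.4 to 52.8 for FSD1, far below the levels of CSD2 and FSD1. For COPT2 they ran from 6.02 to 145.1.

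Markers of cell types differed with the hours and the lines beside these results. The stomatal list (5 genes, all detected) summed to 434.4 to 718.6 in WT and 756.2, 40380 and 45610 in iSPCH at 0 h, 6 h and 8 h. SPCH made up most of that sum only in iSPCH at 6 h and 8 h. The root list (8 genes, none at 0) summed to 3084, 2173 and 1893 in WT and 2864, 1723 and 1248 in iSPCH, and its root hair genes COBL9, EXP7 and PRP3 were at 2.12 to 15.0 in iSPCH 8 h against 64.6 to 183.6 in WT 8 h. The shoot list (3 genes, none at 0) summed to 6353, 3673 and 3182 in WT and 6221, 2701 and 2368 in iSPCH. Their part in the results above was not tested. Depth was 15656542 to 32807092 assigned reads a library.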

How the data were processed

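Poly-A RNA was taken with RNeasy columns and sequenced from TruSeq libraries, per the labels' protocols. TAIR10, TopHat, DESeq and CASAVA 1.8 appear in the submitters' processing notes, with no roles, and the strand setting is not given. The authors deposited, per the file headers, 1 mean signal per gene and group, read counts divided by size factors, which is another unit than raw counts, so the log-scale test planned for that case was used. Each mean is a sum of whole multiples of library steps, from which reads of every library were recovered for 33472 of 33602 genes. The other 130, abundant ones with highest group means of 11805 or more, hold 32.4% of reads and were left out of tests. Where their means could not be split, each library was given the group mean times its size factor. These estimates entered the library totals behind depth, the CPM filter and library size scaling. For simulated means, made with the same library steps, the recovery gave 1 solution in 100% of cases, all of them right. These means were drawn below the range of the most abundant genes. Values above it, such as those of SPCH in induced iSPCH and of CAT3 after incubation, were not simulated. The order of libraries within a group is arbitrary.

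Normalised counts were fitted as log2(value + 1) with limma 3.58.1 in R 4.3.3 (limma-trend, robust variance, 6 group coefficients). The filter kept 19658 genes that reached a CPM of 1 in 2 or more libraries, and these were tested in 8 comparisons at a Benjamini-Hochberg FDR of 0.05. Differences of 8 h from 6 h and read ratios were added after seeing the data. The fit was tested on simulated data. Names and positions came from RefSeq TAIR10.1, which matched 32835 loci. Copies were sought with blastn 2.17.0+ (95% identity over 100 bases). Of the lists outside the 10 genes, every tested copper and manganese gene could be named, and of the others up to 4 with the smallest p at WT 8 h against 0 h and 4 between the lines at 8 h; genes in counts of 5 or fewer could be named too. The genes and lists were chosen with earlier results of these data known. BHLH38, BHLH100, IMA2, IRT1, FER1 and CAT2 are named from their values.

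Alternatives were pseudocounts of 0.1 and 5, library size and TMM scaling, a mean CPM filter of 5 or none, no robust variance, edgeR 4.0.16, DESeq2 1.42.0, leaving out each library, and fitting only the groups compared.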

Additional observations from a re-analysis of the deposited data

Results flagged for a closer look

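DHAR1 changed from 0 h to 8 h by 1.42 more (log2, SE 0.13, limma adjusted p = 2.45e-05) in iSPCH than in WT, and 20 of 20 other settings kept the call. DHAR1 has a near copy, AT1G19550, 96.9% identical over 261 bases. LAC3 changed by -0.82 (SE 0.17, adjusted p = 0.0159) more in iSPCH, with 294.1 and 261.9 in iSPCH 8 h against 571.7 and 489.6 in WT 8 h, and the call was lost without 1 WT 8 h library (adjusted p = 0.065) or 1 iSPCH 0 h library (adjusted p = 0.0632). FER1, a ferritin that stores iron, changed by 0.73 (SE 0.15, adjusted p = 0.0132) more in iSPCH, and the call was lost without 1 iSPCH 0 h library (adjusted p = 0.0577) or 1 iSPCH 8 h library (adjusted p = 0.0596). FER1 read 3343 in WT 0 h, 2330 and 2140 in WT 6 h, 4163 and 4044 in WT 8 h, and 2261 and 2581, 3498 and 3366, and 5299 and 4552 in iSPCH at 0 h, 6 h and 8 h.

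CCS and FSD1 were picked out because the 6 h libraries lay on opposite sides of the 0 h libraries in WT and in iSPCH. CCS stood at -0.51 in WT and 0.60 in iSPCH, and FSD1 at 0.30 in WT and -0.29 in iSPCH. The WT changes rest on the single WT 0 h library. Between the lines CCS stood at -0.943 (SE 0.125) at 0 h and 0.17 (SE 0.102) at 6 h. FSD1 stood at 0.773 (SE 0.093) and 0.177 (SE 0.076), so the opposite directions restate line differences present at 0 h. The difference between the lines in these 6 h changes was not itself tested.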

How the results depend on the processing

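For the 10 genes, 80 differences under 19 to 21 other settings gave 1542 values within the replicate spread of those reported and 90 beyond it, 34 of these under library size scaling. No called difference changed sign, and 12 values in 6 uncalled differences, of at most 0.19 as reported, did. Genes called between the lines at 0 h, 18 as reported, numbered 31 with library size scaling, 30 with no filter, 42 with DESeq2, 23 with edgeR and 138 with only the groups compared, and 19 to 41 without single libraries. At 6 h, 925 became 537 with only the groups compared and 228 to 1401 without single libraries. At 8 h, 2100 became 1107 to 2519, and the 645 calls for the change from 0 h to 8 h became 344 to 953, both without single libraries. edgeR on the recovered reads called 939 genes at 6 h and 2103 at 8 h. The causes were not tested.

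Library size scaling gave medians of all genes of up to 0.188 (iSPCH 8 h against 0 h), where the fit reported here gave 0.021. It turned 228 higher and 697 lower genes between the lines at 6 h into 766 and 428, and 934 and 1166 at 8 h into 1757 and 636. Over the hours it gave 6586 higher and 4726 lower in WT at 6 h, 7079 and 5074 at 8 h, 7836 and 5193 in iSPCH at 6 h and 8462 and 5284 at 8 h. No paired analysis was possible because the deposited means do not tell which library of a group is replicate 1 or 2. WT 0 h is a single library, so its differences rest on the spread of other groups. COPT2 at 22 to 250 reads is the least precise of the 10.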
